A study of Mus musculus with 6 samples.

Results

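The genes of 7 hematopoietic cytokine receptors, Kit, Flt3, Csf1r, Epor, Csf3r, Csf2rb and Il7r, were examined in a chromatin state map of mouse hematopoietic stem cells (HSCs). Each gene record was extended by 50 kb on each side, and that of Kit by 160 kb, and every segment of the map that overlapped such a window was taken. This gave 492 segments of the 850831 in the map, over windows of 1172 kb in all. The rule that takes the segments uses gene names and positions.

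The study behind the map sorted HSCs from bone marrow of adult C57BL/6 mice and profiled the histone variant H3.3 by ChIP-seq. Its 6 libraries were 2 H3.3 ChIP libraries and 1 input from HIRA knockout cells, and 2 H3.3 ChIP libraries and 1 input from WT cells. HIRA is the chaperone that places H3.3 into chromatin outside DNA replication. The conditional deletion of Hira in blood cells was triggered by poly(I:C), which induces interferon, given as 2 injections of 20 ug, and sorting took place 7 days after injection began. The labels give this treatment for every library, WT included. They name neither the recombinase, nor the surface markers of the sort, nor how many mice were pooled. The map itself is 1 segmentation into 18 numbered states in bins of 200 bp, tied by its file name to the WT H3.3 libraries, and it has no replicate and no knockout column. The values below are therefore descriptions of 1 map, with no error between animals, no read depth and no test, and the knockout libraries were not analysed here.

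No names are given to the state numbers. States 3 to 6 covered 1.13% of the map and held the start of 50.3% of the 17492 genes with a start in the promoter table. States 7 and 8 lay within gene records in 95.0% of their bins, against 37.9% of all bins. States 9 to 11 covered 13.5% of the map, state 17 15.2% and state 18 55.0%. An end in states 3 to 6 was found for 47.6% of all protein-coding genes and for 9 of 10 HSC marker genes. The exception, Ly6a, had both ends in state 17, though states 3 to 6 took 31.7% of its record. Such an end was found for 2 of 25 genes of mature erythroid, neutrophil, B, T, NK and megakaryocytic cells (Ebf1 and Itga2b). It was found for 0 of 4 genes of stroma and endothelium. Counted anywhere in the record, states 3 to 6 occurred in 10 of 10, 4 of 25 and 2 of 4 of these genes, beside 56.5% of all genes. These lists were chosen with earlier results of these data known. The map holds no expression values, so the purity of the sort was not tested.

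Cytokine receptors pass signals from secreted ligands into blood cells. Kit, Flt3 and Csf1r are receptor tyrosine kinases, which pair on binding their ligand and phosphorylate each other. Epor, Csf3r, Csf2rb and Il7r have no kinase of their own and signal through bound JAK kinases to STAT transcription factors. Kit is used to define HSCs themselves, Flt3 marks the multipotent progenitors that follow them, and the other receptors serve erythroid, granulocytic, monocytic and lymphoid cells.

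The promoters differed in the state at the start of the gene and in base composition. RefSeq promoter sequences (GRCm38.p6, the assembly of mm10), from 250 bases before to 50 bases after the start, were matched for 5 of the 7 genes. They are shown because the starts lay in different states: state 6 for Kit (chr5:75574737-75575036, plus strand), state 5 for Flt3 (chr5:147400440-147400739, minus strand), state 16 for Epor (chr9:21963527-21963826, minus strand), state 5 for Csf3r (chr4:126024409-126024708, plus strand) and state 2 for Il7r (chr15:9529827-9530126, minus strand). Capitals mark matches to short motifs, named after the sequences.
Kit: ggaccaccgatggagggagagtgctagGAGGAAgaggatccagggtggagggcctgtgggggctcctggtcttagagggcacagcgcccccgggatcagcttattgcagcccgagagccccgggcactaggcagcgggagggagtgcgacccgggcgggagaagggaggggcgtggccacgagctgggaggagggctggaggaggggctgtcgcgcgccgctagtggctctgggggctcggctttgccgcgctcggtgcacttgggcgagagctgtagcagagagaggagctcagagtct
Flt3: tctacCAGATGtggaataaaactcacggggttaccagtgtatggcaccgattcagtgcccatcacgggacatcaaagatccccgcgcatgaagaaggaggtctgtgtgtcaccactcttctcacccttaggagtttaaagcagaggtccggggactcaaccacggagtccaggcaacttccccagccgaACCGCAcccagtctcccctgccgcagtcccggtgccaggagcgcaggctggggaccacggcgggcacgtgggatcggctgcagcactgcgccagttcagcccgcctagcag
Epor: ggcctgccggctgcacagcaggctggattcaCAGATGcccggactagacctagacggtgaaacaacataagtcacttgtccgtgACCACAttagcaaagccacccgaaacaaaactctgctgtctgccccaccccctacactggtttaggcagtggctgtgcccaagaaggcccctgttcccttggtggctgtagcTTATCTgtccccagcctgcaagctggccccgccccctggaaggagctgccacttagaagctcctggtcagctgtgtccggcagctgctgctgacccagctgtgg
Csf3r: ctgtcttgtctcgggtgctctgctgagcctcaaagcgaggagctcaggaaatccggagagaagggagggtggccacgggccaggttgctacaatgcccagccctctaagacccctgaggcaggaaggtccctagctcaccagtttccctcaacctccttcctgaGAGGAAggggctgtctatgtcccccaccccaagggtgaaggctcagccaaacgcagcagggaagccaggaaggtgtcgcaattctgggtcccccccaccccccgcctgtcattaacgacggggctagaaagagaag
Il7r: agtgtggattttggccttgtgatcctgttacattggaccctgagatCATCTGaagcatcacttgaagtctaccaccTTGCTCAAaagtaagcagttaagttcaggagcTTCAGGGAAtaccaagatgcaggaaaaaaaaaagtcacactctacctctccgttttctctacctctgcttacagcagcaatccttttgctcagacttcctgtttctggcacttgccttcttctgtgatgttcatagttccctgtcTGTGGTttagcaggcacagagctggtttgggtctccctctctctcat

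Of the 5 starts, 3 lay in states 3 to 6, beside 50.3% of all starts in the promoter table. Epor was the only one of the 5 in state 16, which held 1.83% of all starts, and Il7r the only one in state 2, which held 0.555%. None of the 5 started in states 9 to 11, 17 or 18, which held 18.4%, 5.74% and 19.3% of all starts. The Kit promoter had 20 CG dinucleotides, the Flt3 promoter 18, the Csf3r promoter 9, the Epor promoter 7 and the Il7r promoter 1. The median was 22 for the 8794 promoters whose start lay in states 3 to 6 (quartiles 15 and 29), 6 for the 97 in state 2, 3 for the 320 in state 16 and 2 for the 3382 in state 18. Kit and Flt3 thus had CG counts inside the quartile range of states 3 to 6, whereas Csf3r, which started in state 5, lay below it. Epor lay above the quartile range of state 16 (2 to 6), and Il7r below that of state 2 (3 to 9).

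**Figure D1:**
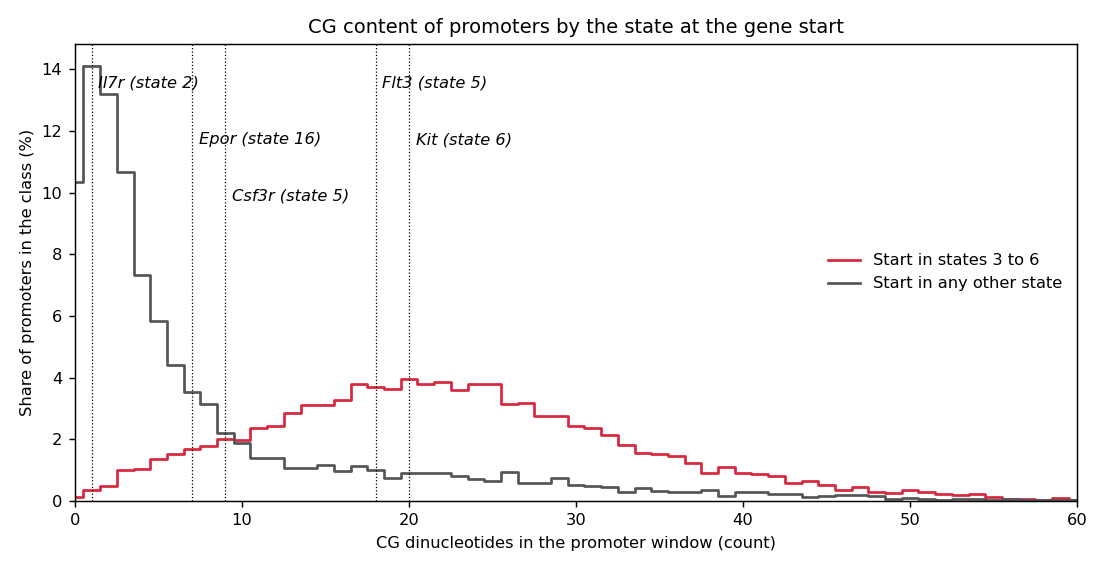
Distribution of the number of CG dinucleotides (horizontal axis, count in the promoter window) over promoters whose start lay in states 3 to 6 (red) or in any other state (grey), as a share of the promoters of that class (vertical axis, percent). Dotted lines mark 5 receptor promoters, from Il7r with 1 to Kit with 20.

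Motif letters were searched on both strands. GATA letters (AGATAA or TGATAA) occurred in 16.3% of all 17492 promoters and, of the 5 receptors, in that of Epor, at 54 to 49 bases before the start. ETS letters (CCGGAA or GAGGAA) occurred in 41.7% of promoters, among them Kit and Csf3r, and RUNX letters (TGTGGT or TGCGGT) in 21.7%, among them Flt3, Epor and Il7r. The E-box letters CAGATG were found in 14.8% of promoters and in those of Flt3, Epor and Il7r. Il7r also held the STAT letters TTCNNNGAA and the CEBP letters TTGCNNAA, present in 7.83% and 10.1% of promoters. No matches overlapped in the promoters shown, and a match describes the letters only.

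Kit encodes the receptor for stem cell factor (Kitl). Its record (chromosome 5, 75574987 to 75656722, mm10) began inside a run of states 3 to 6 that reached from 0.99 kb before the start to 3.61 kb after it. At 4.6 kb this run was longer than most: of the 10022 such runs within 1 kb of a protein-coding gene end, 3.28% were at least as long, and their median was 2.20 kb. Within it 1.60 kb lay in state 4, 1.60 kb in state 6, 0.80 kb in state 3 and 0.60 kb in state 5. A stretch of states 2 and 1 followed at once, from 3.61 to 4.81 kb, and then state 16.

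The body of Kit lay largely in states 7 and 8, which took 55.2% of its record. They filled 78.5% of the 40.9 kb at the 3′ side and 31.9% of the 40.9 kb at the start side, where state 16 took 25.9%. The last block of states 7 and 8 ran without a break from 69.4 to 82.0 kb, to just past the end of the record. For all protein-coding genes the median share of states 7 and 8 in the record was 0%, with an upper quartile of 37.1%.

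The flanks of Kit, in which no other protein-coding record lies, differed from each other. Distal enhancers of Kit are known in mast and erythroid cells. In the 160 kb upstream, state 18 took 64.3% and state 16 5.50%, in 11 segments with a median of 0.60 kb. Counted from the start, the farthest began at -145.59 kb and the nearest at -14.39 kb, and a state 18 block of 47.2 kb ended where the one at -46.59 kb began. In the 160 kb downstream, state 18 took 7.75% and state 16 23.2%, in 28 segments with a median of 1.00 kb. Outside the gene, state 1 lay on that side alone, with a segment of 1.60 kb at 155.01 kb and one of 0.40 kb at 187.01 kb after the start. States 3 to 6 were absent from both flanks beyond the run at the start. Over the whole window state 16 had 12.7 segments per 100 kb, against 3.60 per 100 kb in the map.

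**Figure D2:**
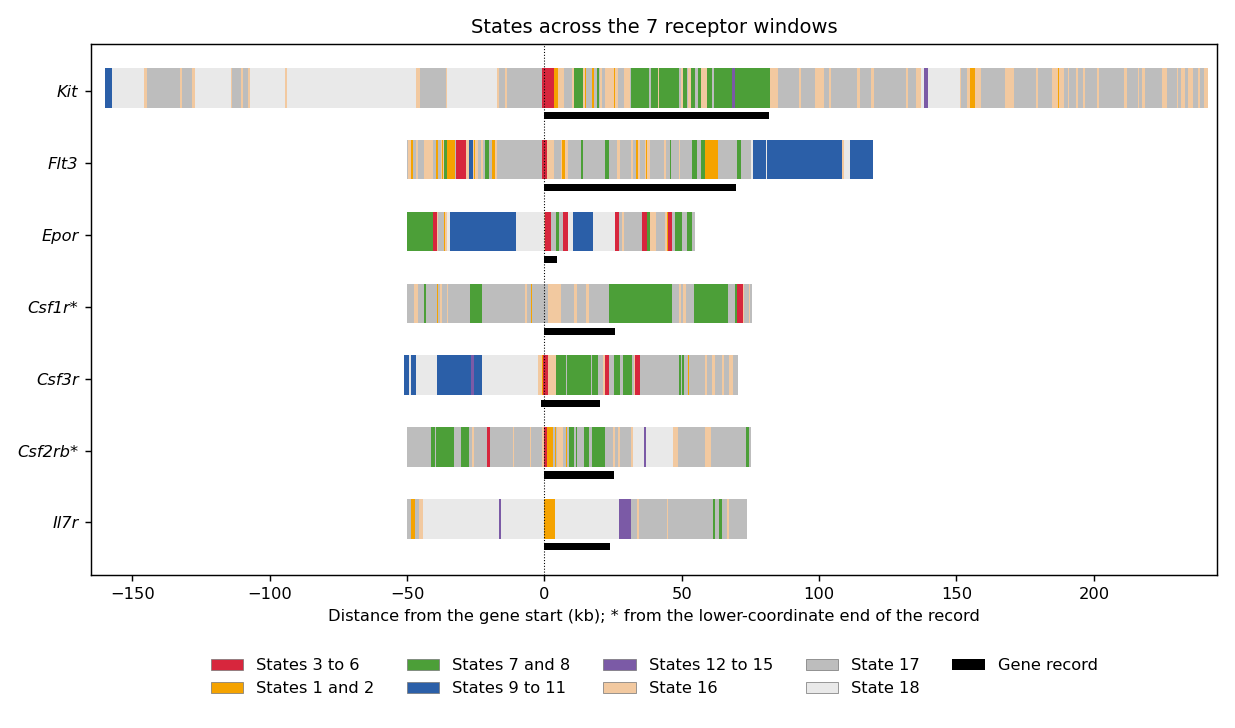
States along the 7 windows (rows), with distance from the gene start in kb on the horizontal axis (from the lower-coordinate end for Csf1r and Csf2rb, marked with an asterisk); colours are groups of states and black bars are gene records. States 9 to 11 (blue) appear in none of the 7 records and in the windows of Kit, Flt3, Epor and Csf3r, and the Il7r record is mostly state 18.

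Flt3 is the receptor for Flt3 ligand. Its record (chromosome 5, 147330741 to 147400489, minus strand) started in a run of states 3, 4 and 5 of 1.80 kb, from 0.71 kb before the start to 1.09 kb after it, and 78.2% of runs at gene ends were at least as long. Behind the start the body was mostly state 17, at 67.2% of the record, with 8.60% in states 7 and 8. This left Flt3 with far less of states 7 and 8 than Kit, a gene of similar length. State 16 took 13.2% of the record in 10 segments and state 1 had 4 segments in it.

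A long state 2 segment lay near the 3′ end of Flt3. It covered 3.60 kb, from 59.5 to 63.1 kb after the start, and 0.211% of the 17528 state 2 segments of the map, 37 in number, were at least as long. The 50 kb beyond the 3′ end held 80.5% of states 9 to 11, where Cdx2, a homeobox gene of gut and placenta, and Urad each had ends in states 10 and 11. On the upstream side, toward Pan3, states 9 to 11 took 2.80%, states 1 and 2 12.4%, and states 3 to 6 8.62%, of which a run of 3.60 kb lay within the Pan3 record. The record ends of Pan3 lay in states 16 and 8, but the promoter table put its start in state 5.

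Epor, the erythropoietin receptor, is a short gene of 4.68 kb (chromosome 9, 21958897 to 21963576, minus strand). Its start lay in a state 16 segment of 0.60 kb and its other end in state 8. A run of states 3 to 6 of 2.20 kb began 0.38 kb after the start and ended at 2.58 kb, all inside the gene, so that states 3 to 6 took 47.0% of the record. The median over all protein-coding genes was 1.44%. The order along the gene was 3, 5, 4 and 6.

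Epor had 8 protein-coding neighbours in its window, more than any other of the receptors. Of its 6 runs of states 3 to 6, all lay within 1 kb of a gene end, and 5 of these were not at Epor itself. Swsap1, a DNA repair gene 0.63 kb away, had an end in state 4, and Tmem205, Ccdc159 and Rab3d each had an end in state 6. Ccdc151 and Prkcsh had ends in state 5. Plppr2 had a start in state 4, but its record ends lay in states 17 and 11. The other end of Rab3d, outside the window, lay in state 11, and that of Ccdc151 in state 10. Rgl3, on the upstream side, had its start in state 9 within 24.0 kb of states 9 to 11, and a state 18 segment lay directly upstream of Epor.

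**Figure D3:**
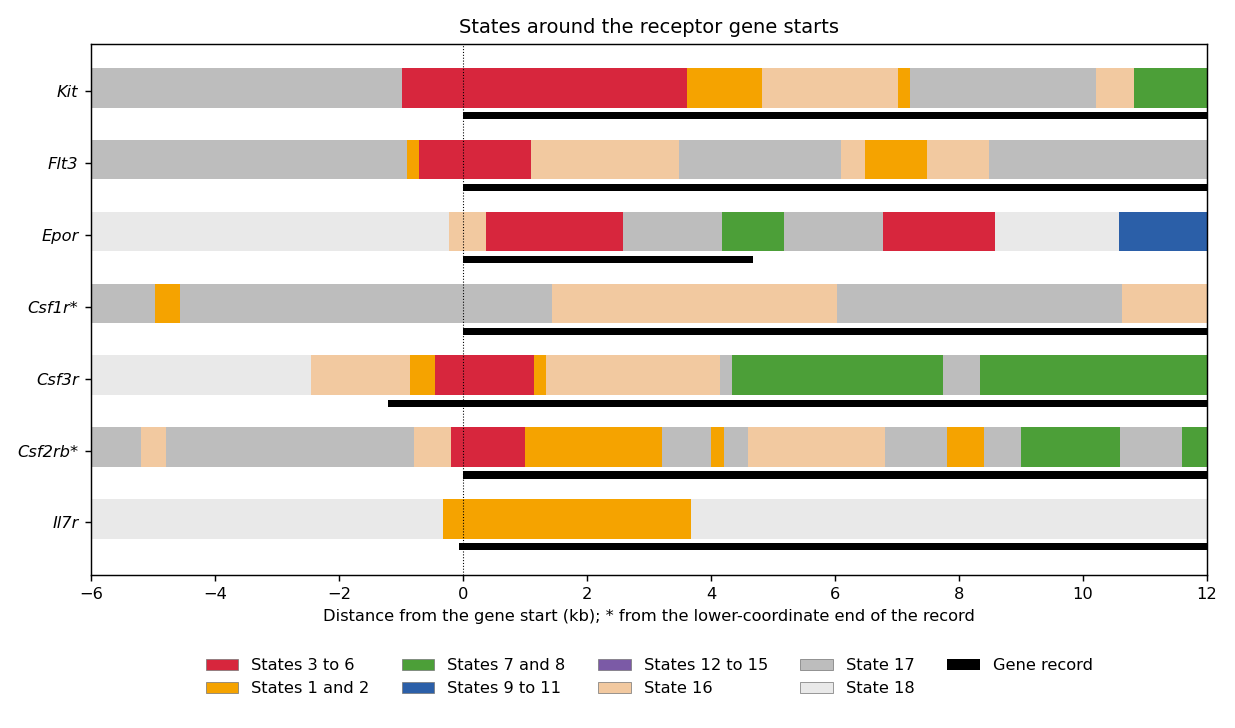
States from 6 kb before to 12 kb after each gene start (horizontal axis, kb; for Csf1r and Csf2rb, with an asterisk, from the lower-coordinate end), 1 row per gene, with gene records in black. Runs of states 3 to 6 (red) lie across the zero line in Kit, Flt3, Csf3r and Csf2rb, 0.38 kb to its right in Epor, and nowhere near it in Csf1r and Il7r.

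Csf3r, the receptor for granulocyte colony-stimulating factor (Csf3), had a single state 5 segment at its start. The record (chromosome 4, 126023441 to 126044975, plus strand) has its outermost end in state 16, and the start in the promoter table lies 1218 bases inside it. The state 5 segment of 1.60 kb reached from -0.46 kb to 1.14 kb around that start. State 1 lay on both sides of it, for 0.40 kb before and 0.20 kb after, and state 16 beyond that. No other receptor had state 1 on both sides of its run.

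Beyond 4.34 kb the body of Csf3r was almost continuous states 7 and 8, which took 65.9% of the record and 89.1% of the 10.8 kb at its 3′ side. That was the highest share of the 7 genes. Upstream of Csf3r, state 18 took 56.8% and states 9 to 11 37.9% of 50 kb, and states 3 to 6 none of it. Downstream, Mrps15, a mitochondrial ribosomal protein gene, and Oscp1 both had their start in state 3.

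Csf2rb encodes the beta chain shared by the receptors for IL-3, IL-5 and GM-CSF. The lower-coordinate end of its record (chromosome 15, 78325800 to 78351001) lay in a run of states 3 to 5 of 1.20 kb, which began 0.20 kb outside the record, and 93.7% of runs at gene ends were at least as long. A state 2 segment of 2.20 kb adjoined it inside the gene. Only 1.35% of state 2 segments in the map were that long or longer. States 7 and 8 took 34.1% of the record, and state 17 40.5%.

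Csf2rb2, which encodes a beta chain specific to IL-3 in mice, lies 20.1 kb away and is a close paralog, so reads from the pair may not have been told apart. Its start lay in a state 4 segment within a run of 1.00 kb. States 7 and 8 took 43.9% of its record and states 1 and 2 0.862%, against 11.9% for states 1 and 2 in Csf2rb. The 18-state profiles of the 2 records, with 5 kb on each side, overlapped by 78.5%, where 100% would be the same share of every state. Csf2rb overlapped by 79.5% with Flt3 and by 77.0% with Csf1r, which are no paralogs of it, and by a median of 46.2% with all genes. A miRNA hairpin of 62 bases is annotated in each, Mir7676-2 in Csf2rb and Mir7676-1 in Csf2rb2, and the 2 hairpins are identical at all 62 positions. The mature miRNAs are shown as the sequence the pair shares, with the seed (bases 2 to 8) in capitals; Mir7676-2 lies at chr15:78348599-78348660 on the plus strand and Mir7676-1 at chr15:78284788-78284849 on the minus strand, from RefSeq on GRCm38.p6.
mmu-miR-7676-5p: aGGGCAGUaugauggccucugau
mmu-miR-7676-3p: uCCGGUGCucacucugcccaca
The same 62 bases lay in state 17 in Csf2rb and in state 8 in Csf2rb2.

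Il7r encodes the alpha chain of the IL-7 receptor, needed for lymphocyte development. State 18 took 84.3% of its record (chromosome 15, 9506159 to 9529941, minus strand). The remaining 15.7% was a single state 2 segment of 4.00 kb that spanned the start, from 0.32 kb before to 3.67 kb after. Of 17528 state 2 segments, 25 (0.143%) were at least as long. States 3 to 6, 7, 8, 16 and 17 were absent from the record, and no run of states 3 to 6 lay anywhere in the window. The window held the fewest segments, with 17.8 segments per 100 kb, against 38.8 to 57.3 in the other 6. State 18 filled 86.4% of the upstream 50 kb, whereas state 17 filled 77.7% of the downstream 50 kb.

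Csf1r encodes the receptor for colony-stimulating factor 1 and Il34, which monocytes and macrophages need. Its record (chromosome 18, 61105572 to 61131139) held no bin of states 1 to 6. Its lower-coordinate end lay in state 17 and its upper end in state 7. State 16 took 27.4% of the record, the highest of the 7 genes, mainly through a segment of 4.6 kb that began 1.43 kb inside the lower end; 0.491% of the 98030 state 16 segments of the map were at least as long. State 17 took 65.0%. The 7.58% in states 7 and 8 lay at the upper end and belonged to a block of 23.0 kb that continued into Hmgxb3, whose record begins 0.14 kb away. The only run of states 3 to 6 in the window lay at the far end of Hmgxb3, from 70.03 kb to 72.43 kb counted from the lower end of Csf1r. Pdgfrb, a receptor tyrosine kinase of the same class used by mesenchymal cells, lay 20.5 kb on the other side and had ends in states 3 and 17. Its end in state 3 lay outside the window.

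**Figure D4:**
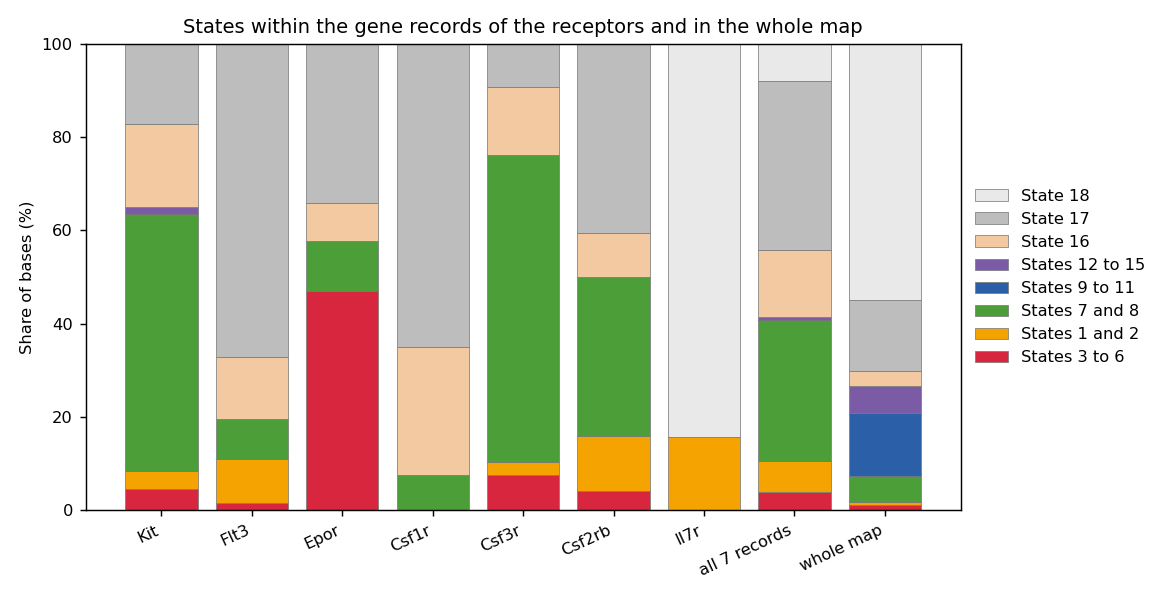
Share of bases (vertical axis, percent) in each group of states within the record of each receptor gene, over all 7 records, and over the whole map. States 7 and 8 (green) take 65.9% of Csf3r and 55.2% of Kit, while state 18 takes 84.3% of Il7r and 0% of the other 6.

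No single state was shared by the ends of all 7 receptors. An end in states 3 to 6 was found in 3 of 7 (Kit, Flt3 and Csf2rb), beside 47.6% of all 21779 protein-coding genes, and states 3 to 6 somewhere in the record in 5 of 7, beside 56.5%. Neither share stands far from the background. With a tolerance of 1 kb around the ends the count was 5, which adds Epor and Csf3r, beside 51.8% of all genes, and the count for records stayed at 5, beside 57.6%. None of the 7 had an end in states 9 to 11 (23.9% of all genes) or a bin of them in the record (34.5%), and none had both ends in state 18 (13.6%). An end in state 16 was found for 3 (Epor, Csf3r and Csf2rb; 7.11% of all genes), in state 17 for 3 (Flt3, Csf1r and Csf3r; 26.3%), in state 7 for 2 (Kit and Csf1r; 3.03%), in state 8 for 1 (Epor; 21.8%) and in state 2 for 1 (Il7r; 0.955%). State 16 was in the record of 6 (53.5% of all genes), state 8 of 6 (49.3%), state 2 of 4 (25.4%), state 1 of 3 (17.1%) and state 7 of 3 (26.5%).

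In base shares by group of states, the windows held more of states 1 to 8, 16 and 17 than the map. They held less of states 9 to 11, 12 to 15 and 18. States 3 to 6 took 2.53% of the 7 windows against 1.13% of the map, states 9 to 11 8.06% against 13.5%, and states 12 to 15 0.853% against 5.90%. States 1 and 2 took 2.49% of the 7 windows against 0.594% of the map, state 16 10.2% against 3.17%, states 7 and 8 13.2% against 5.58%, state 17 41.4% against 15.2%, and state 18 21.3% against 55.0%. Windows around genes differ from the map in any case. With 50 kb on each side of every gene, Kit included, the median of state 16 was 8.63% over the 7 receptors and 4.09% over all genes, with 6 of 7 above the value for all genes. For states 1 and 2 it was 1.76% over the receptors and 0.483% over all genes, with 7 of 7 above. For states 9 to 11 the receptors were split, with 3 of 7 above the median of all genes. Flt3 had 24.5%, Epor 29.8% and Csf3r 15.6%, beside an upper quartile of 17.2% over all genes. Kit, Csf1r, Csf2rb and Il7r had 0%, which was also the median over the receptors. For states 12 to 15 the median was 0.479% over the receptors and 1.19% over all genes, with 1 of 7 above. For states 3 to 6 the medians were 2.53% over the receptors and 2.49% over all genes, with 4 of 7 above. For states 7 and 8 they were 15.8% over the receptors and 10.3% over all genes (5 of 7 above), for state 17 43.1% and 24.2% (6 of 7 above), and for state 18 11.9% and 31.4% (1 of 7 above).

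The 15 runs of states 3 to 6 in the windows were mostly those of neighbours: 5 reached into a receptor record, and 13 lay within 1 kb of a protein-coding gene end, beside 62.6% of the 15998 runs in the map. Of 21 neighbouring protein-coding genes, 14 (66.7%) had an end in states 3 to 6, beside 47.6% of all genes, and 6 (28.6%) an end in states 9 to 11, beside 23.9%. Both ends of a neighbour were counted, also where an end lay outside the window. That held for the ends in states 3 to 6 of Capsl, Spef2, Pdgfrb and Tst. Besides those named, Tex33 had both ends in state 17, Tst and LOC108168367 had an end in state 3, Capsl an end in state 6 and Spef2 ends in states 2 and 3.

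Among themselves the receptors overlapped in their 18-state profiles by 1.12% (Csf1r and Il7r) to 81.6% (Flt3 and Csf1r), with a median of 40.8% over 21 pairs. Il7r overlapped with Epor by 40.1% and with each of the other 5 by 11.9% or less. These profiles include 5 kb on each side of the record. The records of Il7r and Epor themselves shared no state. The 40.1% rests on state 18, which lay only in the flanks of Epor but took 84.3% of the Il7r record. The median overlap with all protein-coding genes was 15.9% for Il7r, 36.3% for Flt3, 38.7% for Csf3r and 46.2% for Csf2rb. The median of 40.8% over receptor pairs is close to what most of the receptors gave with genes in general. It is lowered by the 5 pairs of Il7r at 11.9% or less. The closest genes at least 1 Mb away were Elk3 and Spns2 for Kit (89.9% and 88.4%), Rbpj and Reep3 for Flt3, Rpl39 and 4930563E22Rik for Epor, Prkch and Capn3 for Csf1r, Polr2a and Inf2 for Csf3r, Ifi44 and Ap4s1 for Csf2rb, and Gm21761 and Ifi209 for Il7r. Those overlaps ran from 85.4% to 95.3%, and the likeness rests on 1 map and 18 states.

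The ligands are made largely by cells other than HSCs. Of 11 ligand genes, 4 (36.4%) had an end in states 3 to 6, beside 47.6% of all genes. Kitl had ends in states 6 and 11, Flt3l in states 17 and 5, Csf1 in states 16 and 5, and Il7 in states 17 and 3. Epo, made by the adult kidney, lay wholly in states 9 to 11 and had both ends in state 11. Il3 and Il5 had both ends in state 18, Csf2 ends in states 18 and 10, Csf3 both ends in state 17, Il34 ends in states 17 and 2, and Tslp ends in states 17 and 18. Counted anywhere in the record, states 3 to 6 occurred in 5 of 11 ligand genes, beside 56.5% of all genes. They took 40.8% of the Tslp record.

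For partner chains and other blood cytokine receptor genes the share was 15 of 17 (88.2%). Csf2ra and Il3ra, the alpha chains that pair with Csf2rb, had ends in states 6 and 3, and Il2rg, which pairs with Il7r, had an end in state 5. Il5ra, the alpha chain for IL-5, had ends in states 11 and 17, and Il2rb in states 17 and 18. Downstream of the receptors the share was 16 of 18 (88.9%) for kinases, STATs and adaptors, including Jak1, Jak2 and Jak3 with ends in states 6, 5 and 3. Stat5b and Pik3cd were the exceptions at the record ends, although the promoter table put the start of Stat5b in state 6 and that of Pik3cd in state 3. Counted anywhere in the record, states 3 to 6 occurred in 16 of 17 genes of the first list and 18 of 18 of the second, beside 56.5% of all genes.

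For inhibitors it was 11 of 14 (78.6%), with Cish, Socs1 and Socs3 among them. Socs2 had ends in states 18 and 9, Ptpn6 in states 8 and 1, and Ptpn1 in states 17 and 8, with its start in the promoter table in state 6. Even so, states 3 to 6 took 10.2% of the Socs2 record, 13.3% of that of Ptpn6 and 6.17% of that of Ptpn1. They occurred in the record of 14 of 14 inhibitors, beside 56.5% of all genes. For STAT5 target genes it was 9 of 11 (81.8%), including the kinase genes Pim1 and Pim2. Bcl2l1, a survival gene, had both ends in state 17, with its start in the promoter table in state 2. The records of 11 of 11 STAT5 target genes held states 3 to 6, which took 4.00% of that of Bcl2l1. Cish and Socs2 belong to both of these lists.

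**Figure D5:**
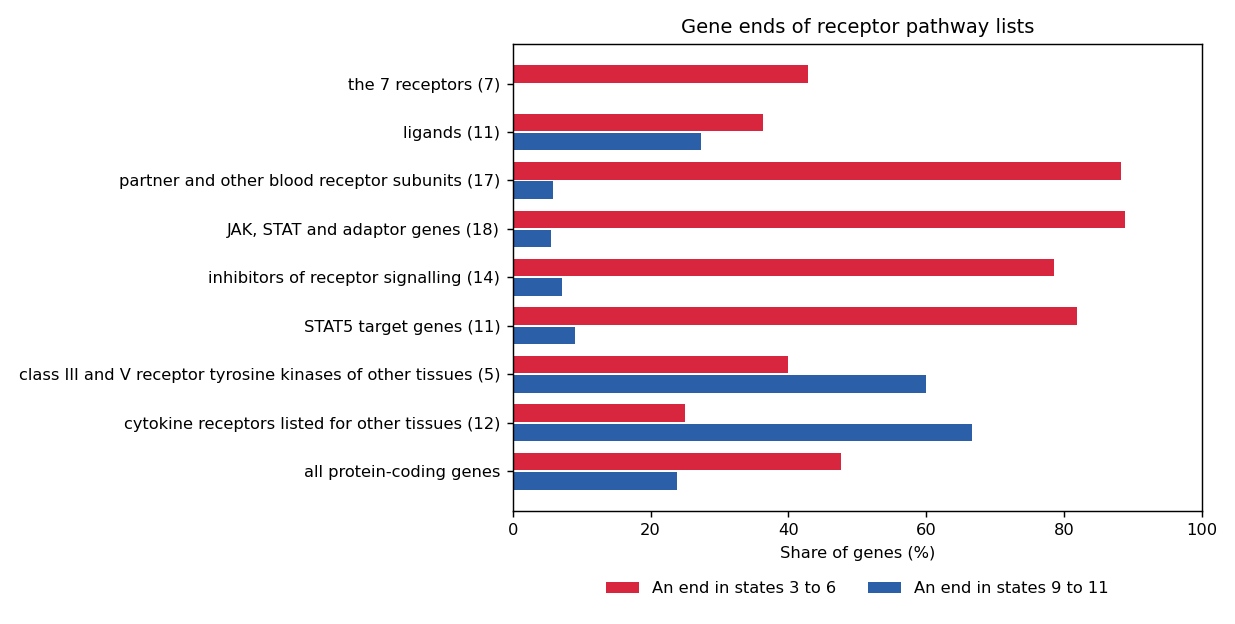
Share of genes (horizontal axis, percent) with an end in states 3 to 6 (red) or in states 9 to 11 (blue), for the 7 receptors, 7 lists of related genes with their numbers of genes, and all protein-coding genes. The receptors stand at 42.9% and 0%, and cytokine receptors listed for other tissues at 25.0% and 66.7%.

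Receptors of both families that serve other tissues were counted in the same way. Of 12 cytokine receptor genes so listed, 3 ended in states 3 to 6 (Ghr, Il11ra1 and Il12rb2) and 8 (66.7%) had an end in states 9 to 11, among them Prlr, Lepr and Cntfr. The list holds Il12rb2, whose product serves T and NK cells, and Il22ra1, a class II receptor. Without these 2 genes, a choice made after their values were seen, the counts were 2 and 6 of 10. The list of blood receptors above also holds class II receptors, those for interferons among them, and was not shortened. Of 5 tyrosine kinase relatives, 3 (60%) had an end in states 9 to 11, namely Pdgfra, Flt1 and Flt4, and 2 an end in states 3 to 6, namely Pdgfrb and Kdr. Counted anywhere in the record, states 3 to 6 occurred in 4 of the 12 cytokine receptor genes and 4 of the 5 kinase genes, beside 56.5% of all genes. Pdgfra and Kdr lie on either side of Kit, outside its window, and Kdr, a receptor of endothelial cells, had its start in state 5. None of the differences between lists was tested.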

How the data were processed

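H3.3 ChIP-seq libraries and inputs came from sorted HSCs of HIRA knockout and WT mice, per the labels. The deposited files are 1 ChromHMM segmentation, in a dense and an expanded browser version, and the unit is a state number per segment of whole 200 bp bins; per the file headers the states were ordered by emission. Which tracks entered the model is not given in the sources used here. Bowtie2, deepTools, MACS2, HOMER and mm10 appear in the submitters' processing notes without versions. No counts or depth come with the map, so the depth is unknown and no interval or floor was given.

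Segments were expanded to bins with Python 3.11.15, numpy 2.4.6 and pandas 2.3.3, and bases were counted with bins clipped at window limits. Gene records were those of RefSeq on GRCm38.p6 (1-based); 108 records in the unassembled first 3 Mb of a chromosome and 13 off the map were left out, which leaves 21779. Gene ends are both ends of a record, and starts come from the first promoter entry of a gene. Likeness is the sum of the smaller of the shares of each of 18 states over the record with 5 kb on each side. The counting functions were tested on simulated maps. Named genes are the members, their neighbours, all ligands, the first 3 of every other list with and without an end in states 3 to 6, and the 2 most alike genes at least 1 Mb away; the exceptions and examples beyond these (Ly6a, Ebf1, Itga2b and the starts from the promoter table) were chosen after their values were seen. The members, lists and groups of states were chosen with earlier results of these data known. No test was run, since 1 map allows none over samples. Alternatives were the expanded file, segments of 1 bin left out, other windows, a tolerance of 1 kb, whole segments, starts only, single members left out and, added after seeing the data, a shorter list of receptors of other tissues.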

Additional observations from a re-analysis of the deposited data

How the results depend on the processing

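The expanded file gave the values of the dense file in every result, with the same state in 100% of bins. The count of receptors with an end in states 3 to 6 was 3, and 5 with any bin within 1 kb. It was 2 with segments of 1 bin left out or without Csf2rb, and 3 by gene starts alone, over 5 genes. The count with states 3 to 6 in the record stayed at 5, or 4 without Csf2rb, and that with an end in states 9 to 11 at 0.

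The share of window bases in states 3 to 6 was 2.53%. It was 1.98% without segments of 1 bin, 3.77% in gene records only, 3.11% with 50 kb for Kit and 3.24% without Kit. States 9 to 11 took 8.06% of the windows. With 25 kb on each side (Kit 80 kb) the share was 6.01%, with 100 kb (Kit 320 kb) 11.4%, in gene records only 0%, with 50 kb for Kit 9.64%, without Kit 11.9% and without Csf2rb 9.02%. State 18 took 21.3%. In the same order of settings its share was 23.5%, 25.5%, 7.95%, 16.4%, 17.4% and 22.5%, and 20.2% with whole segments. In each of these settings states 3 to 6 kept a larger share, and state 18 a smaller share, than in the whole map (1.13% and 55.0%, segments of 1 bin included). Windows around genes differ from the map in any case, so this comparison says nothing particular to the receptors. Beside windows of 50 kb around all genes, the medians for states 3 to 6 were 2.53% for the receptors and 2.49% for all genes. Shares of the receptors as a group thus depend on the window and on Kit, whose window is the longest.

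No paired analysis was possible because the map carries neither replicate nor knockout values.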
